A study of Rattus norvegicus with 4 samples.

Results

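Sterol synthesis was examined through 7 genes of the mevalonate and cholesterol pathway and its feedback, Mvd, Idi1, Fdps, Fdft1, Sqle, Cyp51 and Insig1, in rat myometrium, the muscle layer of the uterine wall. The rule took 8 genes and every probe set (a group of oligonucleotides that measures 1 transcript) with 1 of them as its single symbol in the platform annotation. It found 18 probe sets among 8740, for 7 of the 8 genes, and none for Hmgcs1, for which no value is given. Rats 60 days old had lost their ovaries a week before treatment with subcutaneous estradiol benzoate, a slowly released estradiol ester, at 10 µg/kg, or with vehicle, and myometrium was taken at 6 h or 24 h. Each of the 4 groups, control and estradiol at 6 h and at 24 h, is 1 array that carried RNA pooled from 6 animals. With no replicate array a difference within a time has no error and compares 2 pools. A larger level per cell and more cells of a type cannot be told apart in such tissue RNA.

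At 24 h the estradiol array was brighter than its control for all 7 genes, by 3.79-fold to at least 9.79-fold on each gene's brightest probe set. At 6 h the order was turned. All 7 were dimmer on the array labelled estradiol than on the array labelled control, 5 of them by at least 2-fold. The highest signal of each of the 7 genes lay on the 24 h estradiol array. The 6 h labels need care. Igf1, Pgr, S100g and Hsd11b2, textbook estrogen-induced genes of the rat uterus, summed to a signal of 26121 on the 24 h estradiol array and 6747 on its control. Among the 6 h arrays their sums ran the other way, 28248 under the control label and 2934 under the estradiol label. S100g was the largest part of each sum, but all 4 genes had these directions, by at least 2-fold at both times. The 4 were chosen with earlier results of these data known. Directions at 6 h are therefore given for the arrays as labelled.

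As background, cells build cholesterol from acetyl-CoA through mevalonate, isoprenoid diphosphates, squalene and lanosterol. When sterols in the endoplasmic reticulum are low, the SREBP transcription factors are carried to the Golgi by their escort Scap, cleaved, and sent to the nucleus, where they switch on the genes of the pathway together. Insig1 holds Scap back when sterols are plentiful and is itself a target of SREBP, which closes a feedback loop. SREBP acts on promoters with sterol regulatory elements and is helped by the factors NF-Y, which binds the CCAAT box, and Sp1, which binds the GC box.

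The promoters are shown because the genes differed together and are known to share this regulator. RefSeq sequences of build GRCr8 held 6 of the 8 genes, and the stretches before the start of the 5 with signals on the array are printed 5′ to 3′ on the strand of the gene. They lie at chr19:67414975-67415224 on the minus strand for Mvd, chr17:66547525-66547774 on the minus strand for Idi1, chr2:176804817-176805066 on the minus strand for Fdps, chr4:30991443-30991692 on the plus strand for Cyp51 and chr4:8057813-8058019 on the minus strand for Insig1. Capitals mark matches, on either strand and nowhere overlapping, to the CCAAT box, to the GC box GGGCGG and to the E-box CACGTG. The stretch of Insig1 ends 44 bases before the start, where the annotated gene begins. For Sqle and Fdft1 no promoter was used.
Mvd: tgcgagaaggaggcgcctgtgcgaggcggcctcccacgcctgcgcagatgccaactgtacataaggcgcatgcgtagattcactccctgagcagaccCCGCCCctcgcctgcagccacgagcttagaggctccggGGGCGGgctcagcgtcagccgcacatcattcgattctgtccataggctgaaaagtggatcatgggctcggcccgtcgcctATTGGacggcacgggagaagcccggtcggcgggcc
Idi1: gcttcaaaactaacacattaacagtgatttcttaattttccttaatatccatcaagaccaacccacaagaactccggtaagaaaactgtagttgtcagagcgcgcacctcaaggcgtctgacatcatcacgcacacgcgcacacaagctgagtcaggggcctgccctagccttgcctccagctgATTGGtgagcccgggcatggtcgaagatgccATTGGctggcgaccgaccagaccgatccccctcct
Fdps: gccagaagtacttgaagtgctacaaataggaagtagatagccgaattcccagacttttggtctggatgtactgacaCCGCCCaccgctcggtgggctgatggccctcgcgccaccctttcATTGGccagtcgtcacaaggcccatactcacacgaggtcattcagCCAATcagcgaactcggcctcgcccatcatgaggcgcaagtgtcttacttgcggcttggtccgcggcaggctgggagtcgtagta
Cyp51: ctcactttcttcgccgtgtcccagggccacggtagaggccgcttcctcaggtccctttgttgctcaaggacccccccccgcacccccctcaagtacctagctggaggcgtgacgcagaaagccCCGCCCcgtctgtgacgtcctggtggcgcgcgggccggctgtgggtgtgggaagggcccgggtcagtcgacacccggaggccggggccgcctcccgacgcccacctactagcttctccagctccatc
Insig1: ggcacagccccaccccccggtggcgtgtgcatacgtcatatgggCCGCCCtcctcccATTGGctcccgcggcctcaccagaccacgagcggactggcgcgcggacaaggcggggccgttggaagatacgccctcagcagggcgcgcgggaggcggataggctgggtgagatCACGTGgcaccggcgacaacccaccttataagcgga

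Of the 6 promoters, counted over 250 bases before the start and with Hmgcs1 included, 5 held CCAAT, all but Cyp51, and 5 held the GC box GGGCGG, all but Idi1. Over the promoters of 27457 genes the shares were 34.3% and 32.4%. At least 2 CCAAT boxes stood in 3 of the 6, Hmgcs1, Idi1 and Fdps, against 9.77% of all. The 6 stretches held 52.8% to 72.8% G and C, against a median of 52% over all promoters. The E-box CACGTG, which SREBP can also bind, was found in Insig1 and in 5.79% of all. It lies 79 to 74 bases before the start. The core TCACNCCAC of the classical sterol element was in 0 of the 6 and in 0.976% of all, and the estrogen response element palindrome, GGTCA and TGACC with 3 bases between, in 0 of the 6 and in 0.0219% of all. A match is a description of letters and no measured binding.

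Signals below are the deposited MAS5 intensities at a common trimmed mean of 500. Each array has a floor at its 40th percentile, between 89.5 and 108 signal units, and values under it are not read as levels. A probe set was called different when the log2 difference was 1 or more and the higher signal lay above the floor of its array. Where the dimmer array was at its floor, the fold is a lower bound, written as at least.

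The first enzymes make the isoprenoid units. Mvd, which decarboxylates mevalonate diphosphate to isopentenyl diphosphate, read 389.9 under the control label and 137 under the estradiol label at 6 h, and 29.6 in the control and 451 with estradiol at 24 h. Only the 24 h control was at its floor, which made the 24 h fold at least 4.47, and the 6 h fold was 2.84 in the other direction. Idi1, which interconverts the 2 isoprenoid building blocks, read 377 and 41.5 at 6 h and 71.7 and 987 at 24 h, each time control before estradiol. It was above the floor on exactly 2 arrays, the one labelled control at 6 h and the 24 h estradiol array. Its fold was at least 9.79 higher with estradiol at 24 h and at least 3.67 lower with the estradiol label at 6 h. A second Idi1 probe set lay at the floor on all 4 arrays, with signals from 3.89 to 46.2, and gives no fold.

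Farnesyl diphosphate and squalene come next. Fdps, the farnesyl diphosphate synthase, read 749 and 378 at 6 h and 423 and 1744 at 24 h on its brightest probe set, control before estradiol. Its other 2 probe sets read 477, 208, 282 and 1532, and 174, 104, 58.7 and 701, in the same order of arrays. All 3 were highest on the 24 h estradiol array, at 4.12-fold, 5.43-fold and at least 6.95-fold over the 24 h control. At 6 h they were 1.98-fold, 2.30-fold and 1.68-fold lower with the estradiol label, so 1 of 3 passed the 2-fold rule. Fdft1, the squalene synthase at the branch to sterols, read 211 and 58.0 at 6 h and 73.2 and 606 at 24 h on its brightest probe set. This was at least 6.01-fold higher at 24 h and at least 2.06-fold lower at 6 h.

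The other 3 Fdft1 probe sets were dim, with signals from 24.3 to 149 on all arrays but the 24 h estradiol array, where they read 229 to 365. They were 2.27-fold to 2.78-fold higher at 24 h, of which the values of 2.27 and 2.35 are bounds. At 6 h none of the 3 passed the rule, and 2 were at the floor on both arrays. The one at 2.78-fold read 131 in the 24 h control, above the floor. Under the control label at 6 h it read 74.0, under the floor, unlike the brightest probe set.

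Sqle, the squalene epoxidase, and Cyp51, the lanosterol demethylase, open the sterol part. Sqle read 417 and 214 at 6 h and 184 and 942 at 24 h, above the floor on every array. It was 5.11-fold higher with estradiol at 24 h and, at 1.95-fold lower, just short of the rule at 6 h. Cyp51 had 5 probe sets, and the brightest read 1048 and 249 at 6 h and 348 and 3034 at 24 h, the largest signal of any of the 18. It was 8.73-fold higher at 24 h and 4.21-fold lower with the estradiol label at 6 h. Its name ends in _s_at, which marks probes that may be shared by several transcripts.

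The probe sets of Cyp51 disagreed in size but not in direction. Their folds at 24 h were 8.73, 4.01, 2.60, 2.52 and at least 1.24, and 4 of 5 passed the rule. The last one was the dimmest, at 129 and 52.9 at 6 h and 40.3 and 125 at 24 h. At 6 h the folds were 4.21, 2.08, 1.85, 1.42 and, for the dimmest, at least 1.26, all lower with the estradiol label, and 2 of 5 passed. Without _s_at probe sets the gene was 2.52-fold higher at 24 h and 1.42-fold lower at 6 h, which ended its call at 6 h.

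Insig1, the feedback brake that retains Scap, was measured by 2 probe sets above the floor on all arrays. The brighter read 692 and 229.9 at 6 h and 354 and 1341 at 24 h, and the other 805 and 270.2 at 6 h and 322 and 864 at 24 h. Insig1 was thus high and low on the same arrays as the enzymes. It was 3.79-fold and 2.68-fold higher with estradiol at 24 h, and 3.01-fold and 2.98-fold lower with the estradiol label at 6 h.

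**Figure D1:**
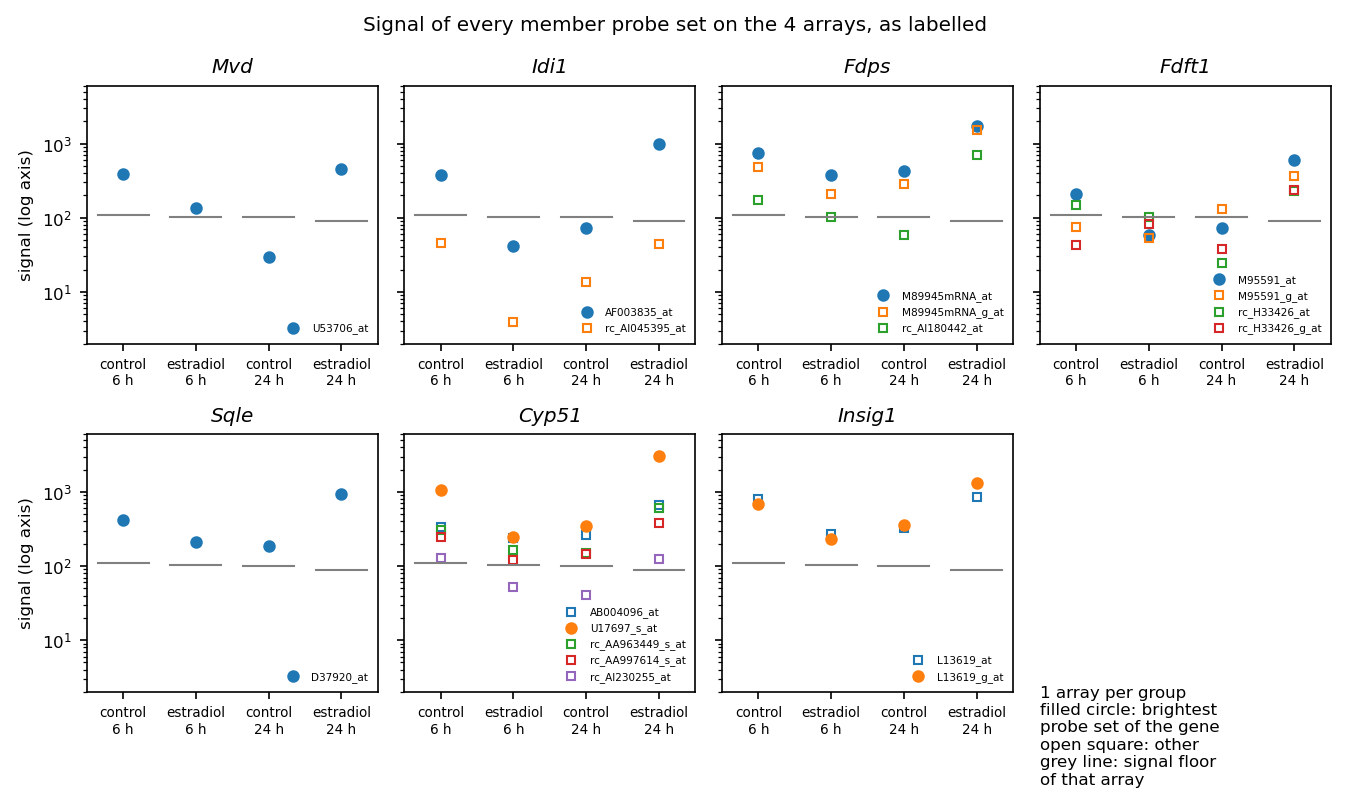
Signal (log axis) of each of the 18 probe sets on the 4 arrays, 1 array per group, with a panel per gene; filled circles are the brightest probe set, open squares the others and grey lines the floor of each array. The 24 h estradiol array is the highest for every brightest probe set. The brightest of Idi1 and of Fdft1 lie under the floor on the 24 h control and on the array labelled estradiol at 6 h.

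Over the 18 probe sets, 16 were at least 2-fold higher with estradiol at 24 h and 0 lower, while 8.3% of the 6157 probe sets above the floor on any array were higher and 8.36% lower. By gene, on the brightest probe set, 7 of 7 were higher and 0 lower at 24 h, against 8.68% and 8.04% of 3619 genes, with a median log2 difference of 2.35 over the 7 and -0.17 over all genes. At 6 h 8 of 18 probe sets were lower with the estradiol label and 0 higher, against 5.38% lower and 6.94% higher of all probe sets. By gene this was 5 of 7 lower and 0 higher, against 5.08% and 6.47%, with medians of -1.51 and -0.06. The genes under the rule at 6 h were Fdps and Sqle. With a floor at the 60th percentile, or with the probe sets of a gene averaged, 2 of 7 passed at 6 h. The genes were chosen with results of these arrays known, so these counts describe them and test nothing.

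**Figure D2:**
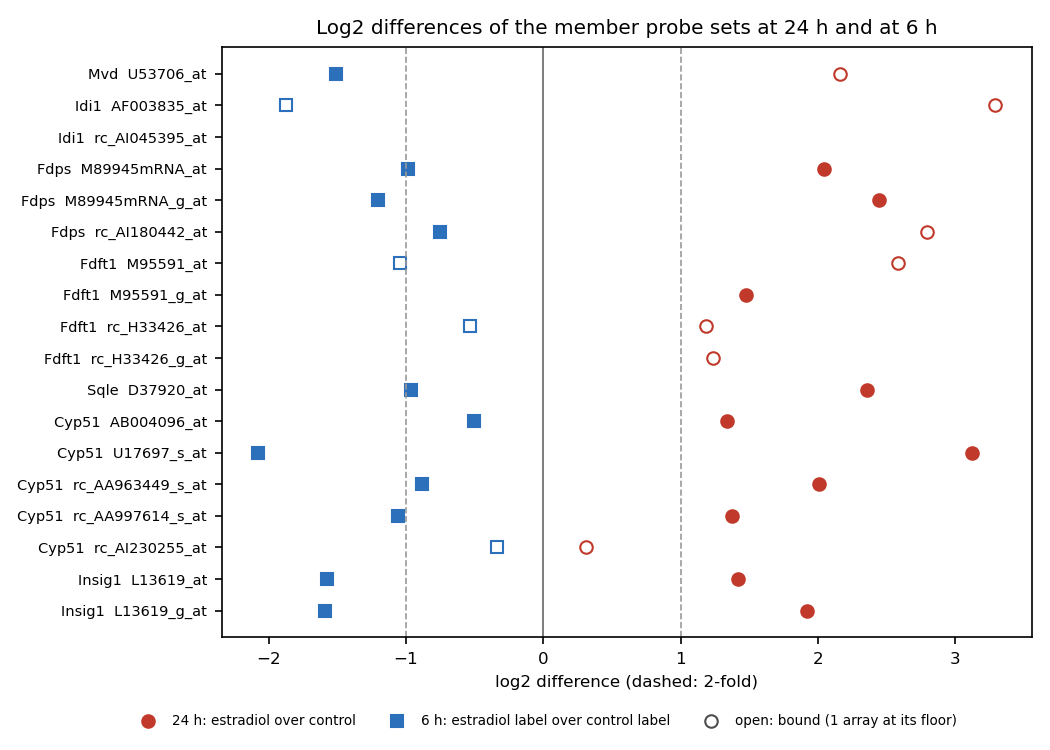
Log2 difference of each probe set for estradiol over control at 24 h (red circles) and for the estradiol label over the control label at 6 h (blue squares); dashed lines mark 2-fold, open symbols are bounds, and a difference with both arrays at the floor is left out. All red symbols lie right of 0 and all blue ones left of it, with 16 red and 8 blue beyond the dashed lines.

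**Figure D3:**
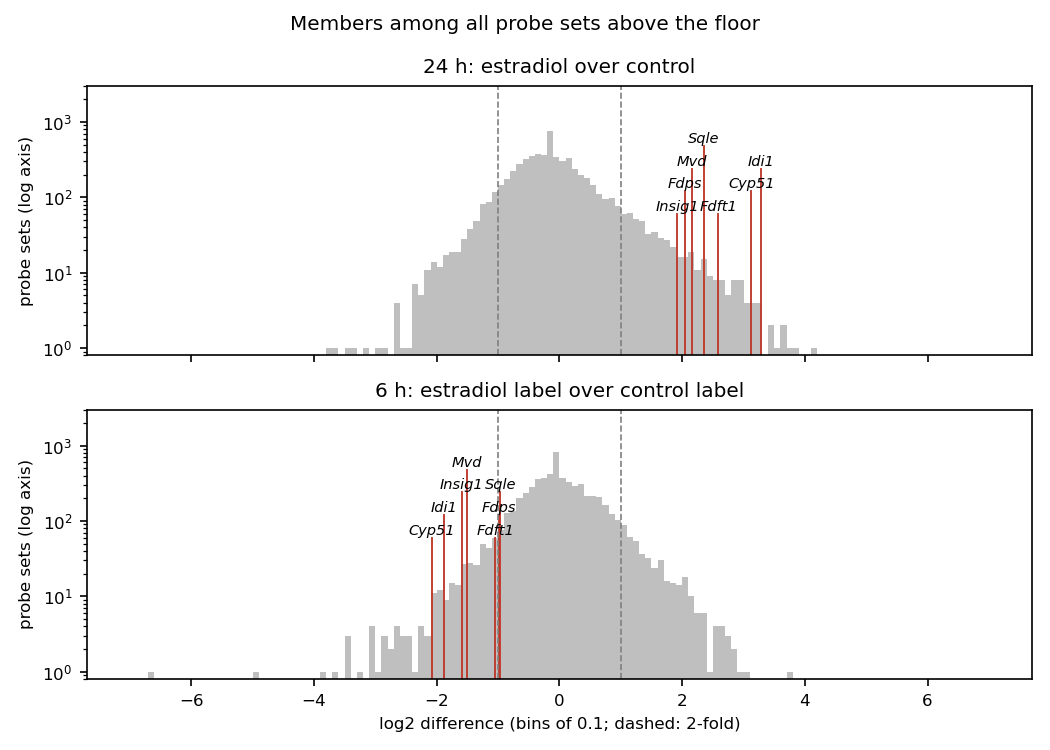
Histograms (bins of 0.1, log axis of counts) of the log2 difference of all 6157 probe sets above the floor at 24 h (top) and at 6 h (bottom), with the brightest probe set of each gene as a red line and 2-fold dashed. At 24 h the 7 genes lie between 1.92 and 3.29, in the upper tail, and at 6 h between -2.07 and -0.96, in the lower tail.

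The controls also differed. From the array labelled control at 6 h to the 24 h control 5 of 7 genes were at least 2-fold lower, against 9.62% of all genes, and the other 2, Fdps and Insig1, were 1.77-fold and 1.95-fold lower. Mvd and Idi1 were at least 3.87-fold and 3.73-fold lower. Between the arrays labelled estradiol, 7 of 7 were higher at 24 h than at 6 h, against 5.44% of all genes, by 3.29-fold for Mvd and 12.2-fold for Cyp51. These comparisons share arrays with those within a time and are no further evidence. Both 6 h arrays were scanned on 1 day and both 24 h arrays on another, which means that time cannot be told apart from scan day.

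The pair of low arrays and the pair of high arrays were set side by side, a comparison chosen after the data were seen. The 6 h array with the estradiol label and the 24 h control differed by less than 2-fold for Fdps, Sqle, Cyp51 and Insig1, the last with the largest log2 difference of these 4, -0.62. Mvd was higher by at least 0.44 under the estradiol label, a bound that sets no upper limit, and Idi1 and Fdft1 were at the floor on both arrays. Over all genes 7.52% were higher and 2.13% lower on the former. The 24 h estradiol array was brighter than the array labelled control at 6 h for all 7 genes, and 5 passed 2-fold, against 5.75% of all genes. Cyp51 was 2.90-fold, Fdft1 2.87-fold, Idi1 2.62-fold, Fdps 2.33-fold and Sqle 2.26-fold brighter there, Insig1 1.94-fold and Mvd 1.16-fold. Igf1, Pgr and S100g had the opposite order, with log2 differences of -0.60, -0.32 and -0.13 between these arrays, and Hsd11b2 was higher by 0.67. Of the 17 probe sets above the floor on any array, 15 had both of these arrays above both others, that is 88.2%, as had 14.7% of all 6157 probe sets. The 24 h estradiol array was the highest for 16 of the 17, the exception being the dimmest of Cyp51.

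A limma fit of all 4 arrays with treatment and time as terms has 1 residual degree of freedom. It asks for a difference by label that is alike at both times. It called 0 of 6157 probe sets for treatment at an adjusted p of 0.05, that is 0%, with 104 at an unadjusted p under 0.05. For time these were 0, 0% and 220. None of the 17 fitted probe sets of the 7 genes passed either term, also unadjusted. For Cyp51 the treatment coefficient was 0.53 ± 1.33 (SE, n = 4 arrays) on the log2 scale, with a limma adjusted p of 0.999. Opposite differences at 6 h and 24 h enter this fit as residual error.

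Other enzymes of the pathway were measured less uniformly. Of 18 listed, 12 had a probe set, and on the brightest one 2 were higher and 1 lower at 24 h, with a median log2 difference of 0.27. At 6 h 1 was higher and 0 lower, with a median of 0.12. Among all genes 8.68% were higher and 8.04% lower at 24 h, and 6.47% and 5.08% at 6 h. Acat2, which joins acetyl-CoA units at the entry of the pathway, read 524 and 538 at 6 h and 143 and 1573 at 24 h, control before estradiol, 11.0-fold higher at 24 h. Its 24 h control was the low array, and 6 h showed 1.03-fold. A second Acat2 probe set read 177 and 99.3 at 6 h and 42.3 and 738 at 24 h, at least 7.32-fold higher at 24 h and at least 1.73-fold lower with the estradiol label at 6 h. It was at the floor on the 2 arrays that were low for the sterol genes.

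After lanosterol, Msmo1, the C4 methyl oxidase, read 790.4 and 668 at 6 h and 724 and 1899 at 24 h, and was 2.62-fold higher at 24 h and 1.18-fold lower at 6 h. Only its 24 h estradiol signal stood out. Lss, the lanosterol synthase, read 377 and 277 at 6 h and 373 and 683 at 24 h, 1.83-fold higher on the brightest probe set and 2.70-fold on another. Nsdhl and Hsd17b7, which remove the C4 methyl groups with Msmo1, were above the floor on the 24 h estradiol array alone, at 201 and 179. Mvk, Ebp, Dhcr7, Por, Lbr and Cyb5r3 were under 2-fold at 24 h on their brightest probe sets, with log2 differences from -0.36 to 0.41. At 6 h Ebp, Dhcr7, Por and Cyb5r3 were under 2-fold, while Mvk and Lbr were at the floor under the control label. A second probe set was at least 2.92-fold higher at 24 h for Mvk, the mevalonate kinase, and 2.16-fold for Dhcr7, which makes cholesterol in the last step.

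Cyb5a, cytochrome b5, an electron donor to several of these oxidases and to fatty acid desaturases, went the other way. It read 219.7 and 823 at 6 h and 1279 and 312 at 24 h, and was 4.11-fold lower with estradiol at 24 h and 3.74-fold higher with the estradiol label at 6 h. Its high arrays were the low arrays of Cyp51. A second Cyb5a probe set gave 2.30-fold and 3.12-fold in these directions.

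Of 15 listed genes of sterol sensing and feedback, 10 had a probe set and 9 were above the floor on some array. The list is broader than sterol sensors and also holds the AMP-activated kinase genes Prkaa1, Prkaa2, Prkab1 and Prkag1. At 24 h 0 of the 9 passed the rule, with a median of -0.21, where 8.68% of all genes were higher and 8.04% lower. At 6 h 1 was lower, against 5.08% of all genes, and the median was 0.031. Counts this small in 9 genes are near these shares. That gene was Srebf1, which encodes the SREBP-1 factors. It read 222 and 85.3 at 6 h and 236 and 228 at 24 h, at least 2.17-fold lower with the estradiol label at 6 h and 1.04-fold lower at 24 h. On its 1 probe set Srebf1 was thus under the floor on the array labelled estradiol at 6 h and level on the other 3. This is 1 call among 9 genes and rests on a floored value. Whether Srebf1 differs from the enzymes in its order of arrays was not tested. Nr1h2 and Nr1h3, the oxysterol receptors LXR beta and alpha, differed by -0.63 and -0.72 at 24 h and by 0.37 and 0.031 at 6 h on the log2 scale. Srebf2, Scap and Insig2 had no probe set named for them alone.

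For uptake, storage and export 14 of 24 listed genes had a probe set and 11 were above the floor. At 24 h 1 was higher and 1 lower, with a median of -0.28, while 2 genes had a higher and 0 a lower signal under the estradiol label at 6 h, at a median of 0.18. The shares of all genes higher and lower were 8.68% and 8.04% at 24 h and 6.47% and 5.08% at 6 h. Cyp27a1, which turns cholesterol into 27-hydroxycholesterol, read 167 and 876 at 6 h and 637 and 224 at 24 h. It was 2.84-fold lower with estradiol at 24 h and 5.24-fold higher with the estradiol label at 6 h, the reverse of Cyp51. A second Cyp27a1 probe set was at least 4.79-fold higher at 6 h. At 24 h it was at least 1.91-fold lower, under the rule. Scarb1, the receptor that takes cholesterol esters from HDL, read 544 and 1956 at 6 h and 1938 and 1598 at 24 h. It was 3.60-fold higher with the estradiol label at 6 h, where 2 of its 3 probe sets passed, and 1.21-fold lower at 24 h. Dbi, which binds acyl-CoA, read 489 and 680.2 at 6 h and 925 and 2065 at 24 h, 2.23-fold higher at 24 h.

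Fatty acid synthesis is the other branch that SREBP controls. Of 18 listed genes 13 had a probe set and 12 were above the floor. With estradiol 4 were higher and 0 lower at 24 h, a median of 0.81, and 1 was higher and 0 lower at 6 h, a median of -0.36. All genes gave 8.68% higher and 8.04% lower at 24 h, and 6.47% and 5.08% at 6 h. Scd, a stearoyl-CoA desaturase, read 117 and 16.5 at 6 h and 66.7 and 505 at 24 h, at least 5.01-fold higher at 24 h. Me1, the malic enzyme that supplies NADPH, was 2.77-fold, Gpam, the first enzyme of glycerolipid synthesis, at least 2.60-fold and Acsl1, which activates fatty acids, at least 2.08-fold higher. These are brightest probe sets, and not all probe sets passed. The rule was met at 24 h by 1 of 2 for Scd, 1 of 5 for Me1, 1 of 5 for Gpam and 2 of 4 for Acsl1. The fatty acid synthase Fasn was 1.74-fold and Acly, which makes cytosolic acetyl-CoA, 1.76-fold higher, both under the rule, while a second Acly probe set was 3.12-fold higher.

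**Figure D4:**
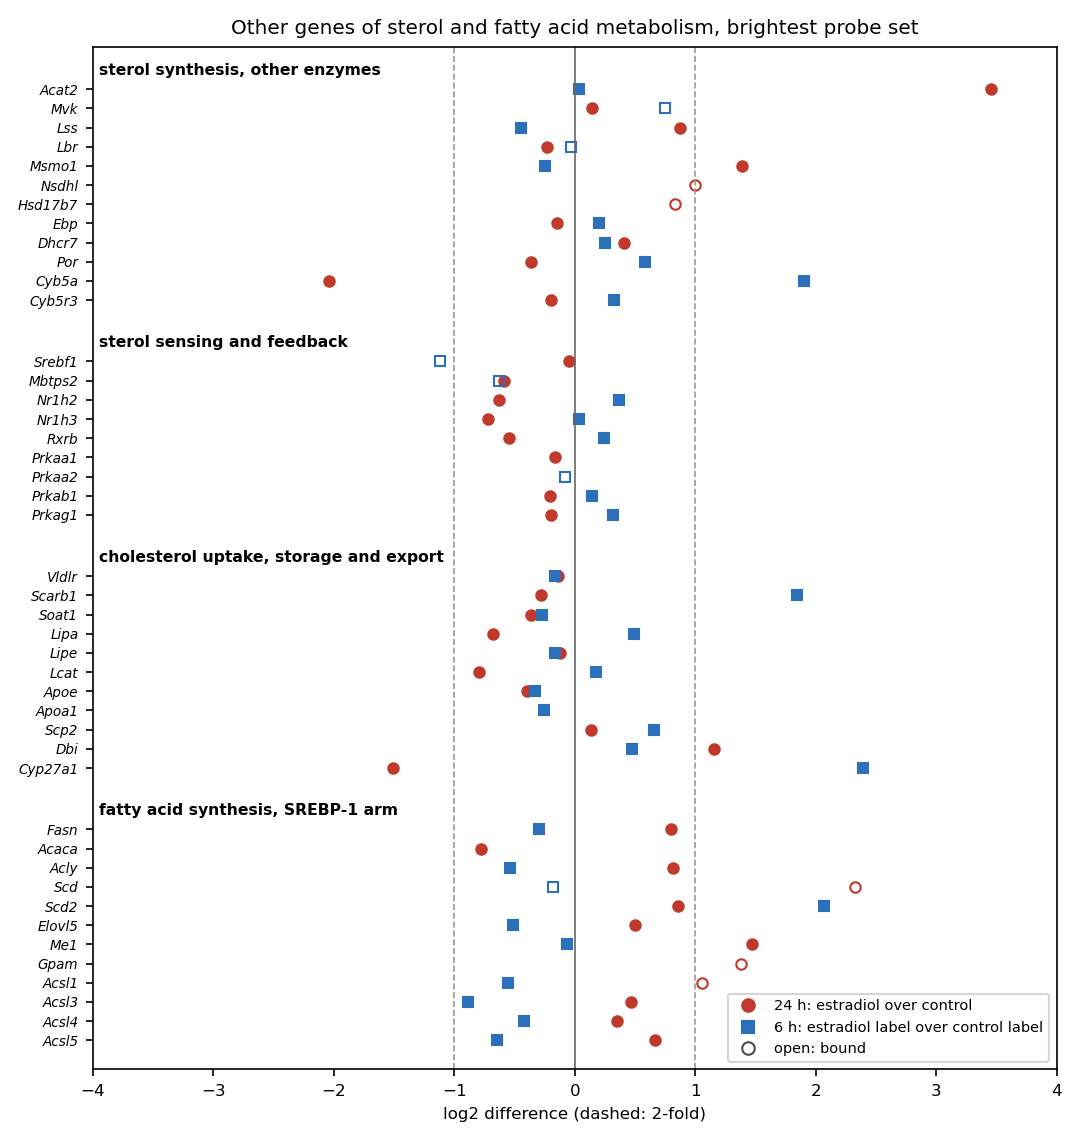
Log2 difference at 24 h (red circles) and at 6 h (blue squares) for the brightest probe set of the other listed genes above the floor on any array; dashed lines mark 2-fold and open symbols are bounds. Acat2, Msmo1 and Scd lie right of 2-fold at 24 h, while Cyb5a and Cyp27a1 lie left of it at 24 h and right of it at 6 h.

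Over the 4 arrays the 10 genes nearest to the median profile of the 7, by Euclidean distance of mean-centred log2 values among 3612 other genes, were Tuba4a, Acta1, Ptprv, Lrrc59, Nrg2, Oxtr, Plaur, Fabp5, Tac1 and Qpct. Distances ran from 0.25 for Tuba4a, an alpha tubulin, to 0.71 for Qpct, and those of the 7 genes themselves from 0.24 for Sqle to 0.93 for Cyp51. Tuba4a read 239 and 74.5 at 6 h and 60.1 and 415 at 24 h, control before estradiol. Its values of 74.5 and 60.1 were under the floor. Oxtr, the oxytocin receptor, read 209 and 85.4 at 6 h and 93.0 and 302 at 24 h, with 85.4 and 93.0 under the floor. On such arrays the likeness rests on floored values. None of the 10 belongs to the listed sterol or fatty acid genes. With 4 points such likeness is a description.

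The tissue was read from marker genes. All 10 smooth muscle markers with a probe set were above the floor on every array on their brightest one. Their summed signals ran from 81713 to 117248, and on these probe sets 0 passed the rule at either time. At 24 h other probe sets did pass, 1 of 3 for Myh11 (lower) and 1 of 2 for Myl9 (higher). For Tpm1 1 of 5 was higher and 1 lower. Of the epithelial markers, Krt8, Krt18, Krt19 and Cd24 had the same arrays high as the sterol genes. Of 7 with a probe set, 6 were higher and 0 lower at 24 h, against 8.68% and 8.04% of all genes. At 6 h, where these shares were 6.47% and 5.08%, 0 of the 7 markers were higher and 4 lower with the estradiol label. Their summed signals were 3972 and 952 at 6 h and 1558 and 6147 at 24 h, control before estradiol. Cd24 was the largest part of each of these sums. The sums of the 7 sterol genes were 3883 and 1307 and 1484 and 9104. Both sets of sums include values under the floor. Epcam and Cldn3 were no higher under the 6 h control label than in the 24 h control. Epcam was at the floor on both 6 h arrays and read 127 in the 24 h control, and Cldn3 read 129.5 under the control label at 6 h and 159.7 in the 24 h control. Muc1 was lowest on the 24 h estradiol array, at 194. On the array labelled estradiol at 6 h, Krt8, Krt18, Epcam and Cldn3 were at the floor. Their part in the sterol differences was not tested.

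For the other cell types, at 24 h, higher and lower calls numbered 0 and 2 of 6 for endometrial stroma, 2 and 3 of 6 for macrophages and leukocytes, 0 and 1 of 4 for endothelium, 0 and 2 of 4 for adipocytes and 0 and 0 of 2 for blood. At 6 h they were 0 and 0, 0 and 1, 0 and 1, 1 and 0, and 0 and 0. The shares of all genes higher and lower were 8.68% and 8.04% at 24 h and 6.47% and 5.08% at 6 h. Coro1a, a leukocyte marker, did have the order of the sterol genes. It read 209 and 28.1 at 6 h and 101 and 256 at 24 h, at least 2.53-fold higher with estradiol at 24 h and at least 2.04-fold lower with the estradiol label at 6 h. Lyz2, of macrophages and granulocytes, was also highest on these 2 arrays, with 3280 and 2208 at 6 h and 997 and 3236 at 24 h. The other measured markers of this list went the other way at 24 h. Cd53, Cd74 and RT1-Da were 2.57-fold, 2.10-fold and 3.44-fold lower with estradiol, and Ptprc at least 1.82-fold. The median log2 difference of the list at 24 h was -0.97. RNA integrity was read from the ratio of 3′ to 5′ signal, which was 1.05 to 1.15 for Gapdh on the 4 arrays, and for Actb 1.23 to 1.39. The wash record of the 24 h control breaks off with an error. Without that array, estradiol at 24 h against the array labelled control at 6 h left 5 of 7 genes 2-fold higher. The label of that 6 h array goes against the estrogen-induced genes, so this comparison is no check on the 24 h control.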

How the data were processed

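Per the submitters' processing notes the authors made the signals with MAS5, and the deposited intensities are linear values per probe set, 1 column per array. The 2% trimmed mean of each column was 500. Its version is not given in the sources used here, and neither are its settings. The deposited instrument records hold other values and were read for scan day and wash record only.

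Of 8799 probe sets 59 were Affymetrix controls and left out. A platform table gave 1 symbol for 7018, several for 308 and none for 1473. Only the first were named, with 0 symbols updated through RefSeq. Signals were floored at the 40th percentile of each array, turned to log2 and compared by a 2-fold rule. The probe set with the highest mean signal stood for its gene. limma 3.58.1 (lmFit, eBayes, Benjamini-Hochberg) in R 4.3.3 fitted treatment and time on 6157 probe sets above the floor on any array. Rule and fit were tested on simulated data. The simulated effect was alike at both times, which leaves out opposite differences like those of these genes. The number of arrays limits the precision. Named were the 7 genes, listed genes past the rule at either time, Srebf1, Srebf2 and Lss, the 4 estrogen-induced genes and the 10 nearest profiles. Some listed genes are not reported here. Others named, such as genes under the rule and second probe sets, were chosen after their values were seen. The genes and lists were chosen with earlier results of these data known. Alternatives were other scalings, floors, a pseudocount, fold rules and probe set choices.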

Additional observations from a re-analysis of the deposited data

Results flagged for a closer look

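Of the 7 sterol genes 5 were at least 2-fold higher with estradiol at 24 h and at least 2-fold lower with the estradiol label at 6 h, so the same contrast had opposite directions at the 2 times. The log2 difference at 24 h minus that at 6 h was 3.67 for Mvd, 5.17 for Idi1, 3.63 for Fdft1, 5.20 for Cyp51 and 3.51 for Insig1. Those of Mvd, Idi1 and Fdft1 are lower bounds, because an array was at its floor. The difference between the times was not tested, since 4 arrays leave no residual degree of freedom for it, and the labels of the 6 h arrays go against Igf1, Pgr, S100g and Hsd11b2.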

How the results depend on the processing

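No paired analysis was possible because each group has 1 array and the labels give no replicate numbers to use as a block, while time entered the limma fit as a term. The count of 7 genes higher at 24 h, like that between the 2 estradiol arrays, stayed within 1.5 times under every alternative run. Against the other control, the array labelled control at 6 h, it was 5 of 7. The 4 estrogen-induced genes summed to 28248 on that array and to 6747 in the 24 h control. Its use as a second control is therefore uncertain. The 5 of 7 lower with the estradiol label at 6 h became 2 with a floor at the 60th percentile, 3 with a 3-fold rule, 2 when a gene's probe sets were averaged and 0 against the 24 h control, the last chosen after the data were seen. The 5 of 7 lower in the 24 h control than in the 6 h control became 1 with the 60th percentile and 3 with a 3-fold rule. The median of the 7 genes at 24 h, 2.35, became 3.05 with a floor at the 20th percentile, 1.67 with averaged probe sets and 1.22 against the other control. At 6 h, -1.51 became -0.65 with the 60th percentile and 0.023, a difference of floors, against the 24 h control. Between the arrays labelled estradiol, 2.54 became 1.90 and 1.78 with the 60th percentile and averaged probe sets. Against the 24 h control the 6 h differences of Mvd, Idi1 and Fdft1 were 0.44, 0.023 and 0.023, of which the first is a lower bound and the others, with both arrays at the floor, are differences of the floors and not of the genes. With the 60th percentile that of Fdft1 was 0.043, as was that of a second Cyp51 probe set, and 2 dim Fdft1 probe sets turned to -0.12 and -0.072 at 24 h and to -0.21 and -0.16 between the arrays labelled estradiol. A raised floor leaves one or both arrays at it by construction. For the other changes the cause was not tested. Over all probe sets, the 1026 past the rule at 24 h became 1873 and 544 with floors at the 20th and 60th percentiles and 2305 and 350 with 1.5-fold and 3-fold rules. The 758 at 6 h became 1493, 424, 1977 and 235, the 1101 between the controls 1896, 582, 2340 and 410, and the 941 between the arrays labelled estradiol 1766, 521, 2398 and 271. The limma fit called 0 probe sets for either term under every setting run. Under a floor, dim probe sets such as the second of Idi1 give no level.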

Other observations

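Enzymes that use isoprenoids were also read. Of 13 listed 7 had a probe set and 6 were above the floor, with 0 higher and 2 lower at 24 h and 0 higher and 1 lower at 6 h, and medians of -0.13 and 0.0085. For all genes the shares higher and lower were 8.68% and 8.04% at 24 h and 6.47% and 5.08% at 6 h. Counts this small in 6 genes are not read as a result about the list. Fntb, a subunit of protein farnesyl transferase, read 429 in the control and 214 with estradiol at 24 h, just past 2-fold, but a second Fntb probe set was at least 3.19-fold higher. Pggt1b, a subunit of the enzyme that attaches longer isoprenoids to proteins, was 2.10-fold lower. Rabggtb, of the enzyme that prenylates Rab proteins, read 3338 and 1334 at 6 h and 1870.3 and 1707 at 24 h, control before estradiol, 2.50-fold lower with the estradiol label at 6 h.

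Scd2, a second stearoyl-CoA desaturase, had a profile unlike that of Scd on its brightest probe set. Its brightest probe set read 461 and 1928 at 6 h and 2055 and 3713 at 24 h, 4.19-fold higher with the estradiol label at 6 h and 1.81-fold higher with estradiol at 24 h. Another read 288 and 1023 at 6 h and 1420.1 and 3658 at 24 h, 3.55-fold and 2.58-fold higher. The array labelled control at 6 h was the lowest of the 4 on both of these. Not all of the 6 Scd2 probe sets had this profile. One that was above the floor on every array read 397 and 449.7 at 6 h and 406 and 298 at 24 h. It was 1.13-fold higher at 6 h and 1.36-fold lower at 24 h, both under the rule.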
